A study of Mus musculus with 6 samples.

Results

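The 10 genes described here are osteoblast and osteocyte genes of bone: the transcription factors Runx2, Sp7 and Dlx5, the osteocalcin genes Bglap and Bglap2, the secreted phosphoprotein genes Ibsp, Spp1, Dmp1 and Mepe, and the osteocyte gene Sost. They were taken by symbol from the 43472 gene symbols in the deposited count tables, with collagens left out, and all 10 had enough counts to be tested. RNA-seq was done on whole intervertebral discs (IVDs) of the thoracic and lumbar spine from mice of strain C57B6/J at postnatal day 20, an age at which the mutants are described as having no overt histopathology. The question is how bone genes behaved in discs of mice made to lose the adhesion G protein-coupled receptor Adgrg6 (Gpr126). Mutant libraries carry Col2Cre and the floxed allele, written Col2Cre;Adgrg6 f/f. Control libraries come from Cre (-) littermates, which the genotype labels call wild type while the sample titles contain Col2Cre. There were 3 libraries per group, and each was a pool of discs from 2 to 3 mice. Col2Cre acts from embryonic life and recombines the entire IVD and also periosteum and trabecular bone, so the deletion is not limited to cartilage. A whole disc also holds cartilaginous endplate and can hold growth plate and adjoining bone, and in bulk RNA fewer cells of a type and less RNA per cell cannot be told apart.

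Osteoblasts build bone in steps. Runx2 commits mesenchymal and hypertrophic cartilage cells to the lineage, Sp7 (osterix) acts downstream of it, and Dlx5 is a homeodomain factor that acts on both bone and cartilage maturation. The cells then lay down type I collagen together with acidic, mineral-binding proteins, and osteocalcin marks the mature osteoblast. Cells buried in the matrix become osteocytes, which make Dmp1, Mepe and the Wnt antagonist sclerostin (Sost). Several of these genes are not exclusive to bone: hypertrophic chondrocytes use Runx2, Sp7, Dlx5, Ibsp and Spp1 as well.

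Between 9061491 and 12017008 counts fell on genes in each library, with a median of 9528291 in controls and 9863346 in mutants, and intervals given below cover counting error only. The disc genes Col2a1 and Acan and the notochordal gene T were present in every library, and of the 7 disc and growth plate chondrocyte and 8 nucleus pulposus markers tested 1 and 0 were called (edgeR unadjusted p under 0.05). Gpr126, the targeted gene under the symbol used in the tables, was at 124, 108 and 94.3 CPM (counts scaled to a common library total, with TMM factors) in control replicates 1, 2 and 3 and at 138, 124 and 106 CPM in the libraries labelled mutant. It was not lower in the latter (log2 fold change 0.17, SE 0.18, edgeR adjusted p = 0.849), so the gene-level count, which sums all exons and does not isolate the floxed ones, did not separate the labels. "Mutant" below therefore means labelled mutant. Control replicate 1 stood apart, with skeletal muscle markers at a summed 2801 CPM against 63.6 to 151 CPM in the other 5 libraries. All 6 of these markers were called lower in mutants. Values without control replicate 1 are given beside some, not all, of the results that it moved.

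Libraries were compared with edgeR's quasi-likelihood test over 16152 genes. None of the 10 genes passed at an adjusted p under 0.05 (Benjamini-Hochberg over all genes tested), where 1 gene in all did (0.00619%), and the lowest adjusted p among the 10 was 0.476. At an unadjusted p under 0.05, which is the threshold meant by "called" throughout, 2 of the 10 were higher in mutant discs (Bglap and Bglap2), against 2.89% of all genes tested. A further 2 were lower (Runx2 and Dlx5), against 4.32% of all genes. All 3 mutant libraries lay above all 3 controls for 3 genes (Bglap, Bglap2 and Spp1, background 5.45%) and below them for 2 (Runx2 and Dlx5, background 5.96%). The median log2 fold change of the 10 was 0.18 against -0.01 over all genes, but it lay between -0.07 and 0.44 when single libraries were left out. The median size of the change, regardless of sign, was 0.49 against 0.22. Without control replicate 1, 3 of the 10 were called higher and 1 lower, but calls over all genes were then also more frequent, at 5.25% higher and 8.89% lower of 17164 tested. By role, the called genes were 2 of the 3 transcription factors, both lower, and the 2 osteocalcin genes, both higher.

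**Figure D1:**
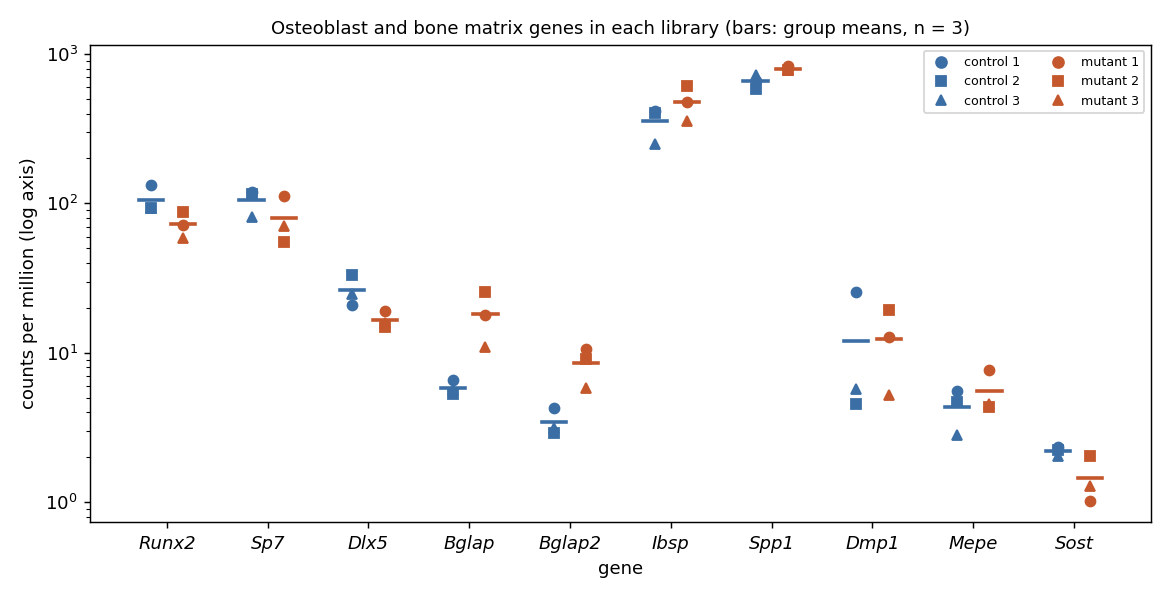
CPM on a log axis for each of the 10 genes, with control libraries in blue, mutant libraries in orange, symbols for replicate numbers and bars for group means. The mutant libraries lie wholly above the controls for Bglap, Bglap2 and Spp1 and wholly below them for Runx2 and Dlx5.

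Bglap and Bglap2 encode osteocalcin, the vitamin K-dependent protein that mature osteoblasts secrete into bone matrix, and they carried the largest fold changes of the 10. They lie side by side on the minus strand of mouse chromosome 3 in GRCm38, Bglap at chr3:88383501-88384464 and Bglap2 at chr3:88377736-88378699, next to the related gene Bglap3 at chr3:88368616-88372743. The coding sequences of Bglap and Bglap2 in GENCODE M21 are each 285 bases long and differ at 4 of them (98.6% identical). The first 60 coding bases, where 3 of the 4 differences fall, are shown to illustrate how little separates the coding sequences, with the differing bases in capitals. The transcripts, of 440 and 471 bases, also differ outside this stretch.
Bglap: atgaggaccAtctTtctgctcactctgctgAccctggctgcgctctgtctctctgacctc
Bglap2: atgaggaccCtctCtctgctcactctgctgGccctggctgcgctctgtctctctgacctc
Of the 391 stretches of 50 bases in the Bglap transcript, 74.7% occur unchanged in the Bglap2 transcript, and 56.3% of those of 100 bases do. A read from such a stretch cannot be assigned to either gene by its sequence alone, so the 2 counts are uncertain one by one.

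Bglap was at 6.53, 5.33 and 5.63 CPM in control replicates 1 to 3 and at 18.0, 25.5 and 10.9 CPM in mutant replicates 1 to 3. Every mutant library was above every control, and the mutants differed more among themselves than the controls did. The group means were 5.83 ± 0.624 and 18.1 ± 7.26 CPM (SD, n = 3 each), a log2 fold change of 1.64 (SE 0.32, unadjusted p = 0.000415, adjusted p = 0.476, edgeR). These values rest on 61, 48 and 72 counts in controls and 158, 312 and 103 counts in mutants.

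Bglap2 was at 4.28, 2.89 and 3.13 CPM in controls and at 10.6, 9.06 and 5.84 CPM in mutants. The groups again did not overlap. The means were 3.43 ± 0.745 and 8.50 ± 2.42 CPM, a log2 fold change of 1.31 (SE 0.36, edgeR unadjusted p = 0.00473, adjusted p = 0.657). When the counts of Bglap, Bglap2 and Bglap3 were added to give 1 gene, the log2 fold change was 1.50 (edgeR unadjusted p = 0.000273, adjusted p = 0.382). Bglap and Bglap2 were each higher on their own, so this sum could hardly have had another direction. Reads of shared stretches that were counted for no gene are not in the sum, and their part was not tested.

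Bglap3, a relative expressed mainly outside bone, had 7 counts in control replicate 1, 6 in mutant replicate 3 and none in the other 4 libraries, too few to test. Bglap made up 60.4%, 64.9% and 64.3% of the summed Bglap and Bglap2 counts in controls and 62.9%, 73.8% and 65.2% in mutants. The highest share, in mutant replicate 2, had an exact 95% binomial (Clopper-Pearson) interval of 69.3% to 77.9%. The group means differed by 4.12 percentage points (two-sided exact permutation p = 0.4), where 3 libraries against 3 cannot give a p below 0.1.

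The call for both osteocalcin genes was made in 13 of 13 alternative settings at the unadjusted threshold, with log2 fold changes of 1.32 to 1.91 for Bglap and 1.15 to 1.52 for Bglap2 when any single library was left out. Without control replicate 1 the values were 1.75 and 1.51. Adjusted p-values for Bglap passed 0.05 in 2 settings, DESeq2 (0.00442) and edgeR without a filter on low counts (0.0005), and ran from 0.0005 to 0.999 over all 13. Markers of marrow cells were also higher in some mutant libraries. All 5 red blood cell precursor markers tested had a log2 fold change above 0 (median 1.02). So did all 7 neutrophil precursor markers tested (median 1.44). Summed markers of red blood cell precursors were at 282, 32.5 and 85.8 CPM in control replicates 1 to 3 and at 236, 368 and 177 CPM in mutants, overlapping because of control replicate 1, and 1 of 5 tested was called higher. Within that list Slc4a1, the red cell anion exchanger, had mutant values wholly above controls (2.49 ± 1.77 against 15.9 ± 10.2 CPM). Summed neutrophil precursor markers were at 9.42, 25.3 and 41.0 CPM in controls and 114, 37.9 and 27.2 CPM in mutants, with 2 of 7 called higher, and the granule gene Mpo was higher in all 3 mutants (4.09 ± 1.66 against 18.3 ± 10.5 CPM). Mutant replicate 2 had the highest Bglap and the highest red cell precursor sum, whereas mutant replicate 1 had the highest neutrophil precursor sum. The part of adjoining bone or marrow in the osteocalcin values was not tested.

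The RefSeq promoter table for GRCm38.p6 holds 9 windows for 7 of the 10 genes, and Bglap2, Sp7 and Dlx5 are not in it. Each window was searched over the 250 bases before the annotated start, on both strands, for the core bound by RUNX proteins, which reads ACCACA, or TGTGGT where it lies on the opposite strand. The second search was for a homeodomain core of the kind DLX proteins bind, which reads TAATTG, or CAATTA where it lies on the opposite strand. The upstream stretches of Bglap, Spp1 and Sost are shown because Bglap and Spp1 had mutant libraries wholly above controls and Sost did not. Matches to either core are in capitals.
Bglap promoter, chr3:88384467-88384716, minus strand: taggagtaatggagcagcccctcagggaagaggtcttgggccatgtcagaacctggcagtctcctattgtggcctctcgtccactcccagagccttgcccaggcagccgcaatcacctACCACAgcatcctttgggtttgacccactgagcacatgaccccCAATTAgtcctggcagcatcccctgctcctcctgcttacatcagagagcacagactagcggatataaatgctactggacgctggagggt
Spp1 promoter, chr5:104434861-104435110, plus strand: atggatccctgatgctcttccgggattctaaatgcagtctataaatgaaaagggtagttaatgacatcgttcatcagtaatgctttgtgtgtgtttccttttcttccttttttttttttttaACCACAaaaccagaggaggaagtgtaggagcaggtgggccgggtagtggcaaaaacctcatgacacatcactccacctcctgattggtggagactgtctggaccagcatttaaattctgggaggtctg
Sost promoter, chr11:101967016-101967265, minus strand: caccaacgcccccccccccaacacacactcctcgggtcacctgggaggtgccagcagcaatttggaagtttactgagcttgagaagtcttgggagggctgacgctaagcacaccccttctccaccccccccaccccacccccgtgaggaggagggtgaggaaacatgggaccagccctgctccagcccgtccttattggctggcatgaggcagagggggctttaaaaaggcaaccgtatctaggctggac
The Bglap stretch held both cores, with the RUNX core beginning 132 bases and the homeodomain core 89 bases before the start. The Spp1 stretch, the first of 2 windows for that gene, held the RUNX core 128 bases before the start. The second Spp1 window, not shown, held neither core, and the Sost stretch held neither. Of the 9 windows, 5 held the RUNX core (1 each of Runx2, Bglap, Spp1, Dmp1 and Mepe) and 2 the homeodomain core (Bglap and Ibsp), where 14% and 7.17% of all 32851 promoter windows of that length did. Matches did not sort with the direction of change. The RUNX core was also present for Runx2, with mutants wholly below controls, and matched at 2 places for Mepe, with overlapping groups. A match describes the letters only.

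Runx2, the factor required for osteoblast formation, is on the minus strand at chr17:44495987-44814797. It was at 132, 93.1 and 92.9 CPM in control replicates 1 to 3 and at 71.6, 87.5 and 58.8 CPM in mutants. All mutant libraries were below all controls, with mutant replicate 2 closest to them. The means were 106 ± 22.5 and 72.6 ± 14.4 CPM (SD, n = 3 each), a log2 fold change of -0.55 (SE 0.21, edgeR unadjusted p = 0.0282, adjusted p = 0.676). The call was lost without control replicate 1 (-0.34, edgeR unadjusted p = 0.136), without mutant replicate 1 (-0.50, edgeR unadjusted p = 0.0853) and without mutant replicate 3 (-0.41, edgeR unadjusted p = 0.125). Runx2 shares 519 exonic bases with the antisense gene Runx2os1, which had 765 counts in all against 5516 for Runx2 and a log2 fold change of -0.89 (SE 0.25, edgeR unadjusted p = 0.00546). The strand setting of the counting is not given in the sources used here, so reads of the shared bases cannot be told apart.

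Sp7, a zinc finger factor that osteoblasts need after Runx2, is on the minus strand at chr15:102356606-102367182. It was at 120, 116 and 80.7 CPM in controls and 113, 55.4 and 70.4 CPM in mutants. The groups overlapped through mutant replicate 1, which was at the level of the higher controls. The log2 fold change was -0.41 (SE 0.27, edgeR unadjusted p = 0.162, adjusted p = 0.780). Of 12 alternatives, 2 called it: without mutant replicate 1 (-0.71, edgeR unadjusted p = 0.0167) and with scaling by total counts alone (-0.53, edgeR unadjusted p = 0.0415). That scaling moved the median of all genes to -0.13. The change was smaller without mutant replicate 2 (-0.19, edgeR unadjusted p = 0.498) and without control replicate 1 (-0.29, edgeR unadjusted p = 0.351).

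Dlx5, a distal-less homeodomain factor of osteoblasts and maturing chondrocytes, is on the minus strand at chr6:6877805-6882085. It was at 20.9, 33.1 and 24.8 CPM in controls and at 18.9, 14.9 and 15.8 CPM in mutants. The mutants were below every control, though mutant replicate 1 and control replicate 1 lay close together. The means were 26.2 ± 6.24 and 16.5 ± 2.11 CPM, a log2 fold change of -0.67 (SE 0.22, edgeR unadjusted p = 0.0115, adjusted p = 0.676). The call was lost without control replicate 2 (-0.48, edgeR unadjusted p = 0.0612) and held without each of the other 5 libraries. Its partner on the same chromosome cluster, Dlx6, named here after its values were seen, was at 3.55 to 4.07 CPM in controls and 2.12 to 2.85 CPM in mutants (log2 fold change -0.63, SE 0.43, edgeR unadjusted p = 0.174).

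Genes of hypertrophic chondrocytes, which share these 3 factors, were at a summed 2198, 1532 and 1138 CPM in control replicates 1 to 3 and at 1155, 904 and 931 CPM in mutants, where only mutant replicate 1 reached the lowest control. Of the 6 markers 3 were called lower and 1 higher. The part of hypertrophic cartilage in the levels of Runx2, Sp7 and Dlx5 was not tested.

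**Figure D2:**
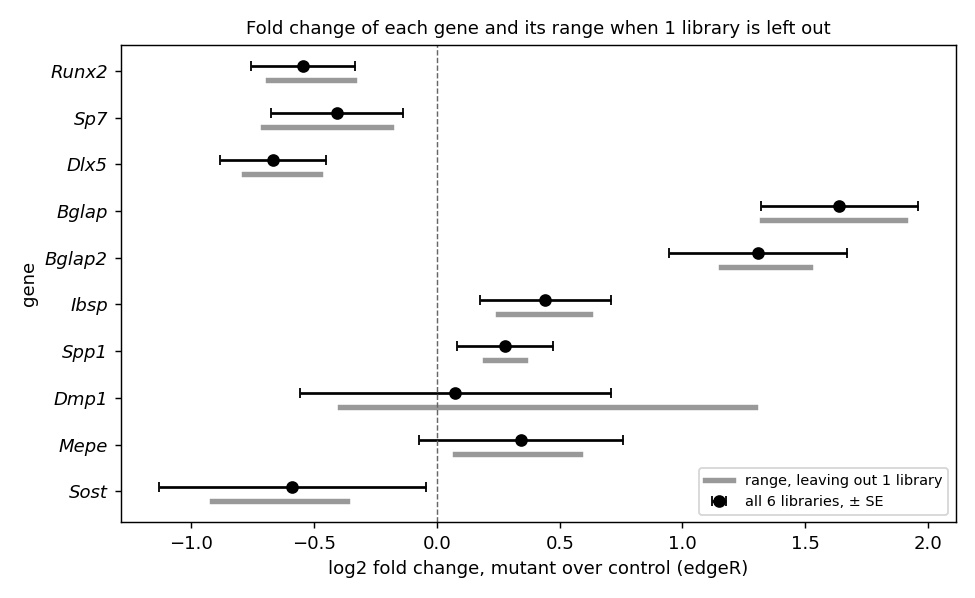
Log2 fold change of mutant over control libraries for each gene (points, with bars for the SE from edgeR) and, in grey, the range when 1 library at a time is left out. The grey range of Bglap runs from 1.32 to 1.91 and that of Dmp1 crosses zero, from -0.40 to 1.30.

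The 4 secreted phosphoprotein genes lie together on the plus strand of chromosome 5, in the order Dmp1 (chr5:104202613-104214102), Ibsp (chr5:104299171-104311469), Mepe (chr5:104325329-104338611) and Spp1 (chr5:104435118-104441050). They encode acidic proteins that bind hydroxyapatite or regulate its growth. None was called with all 6 libraries, although all 4 log2 fold changes were above 0.

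Spp1 (osteopontin), which is made by osteoblasts and also by chondrocytes and macrophages, was the most abundant of the 10 genes. It was at 662, 587 and 724 CPM in controls and 828, 778 and 783 CPM in mutants. The mutant libraries were all above the controls and closer to each other. The means were 658 ± 68.3 and 796 ± 27.6 CPM, a log2 fold change of 0.28 (SE 0.20, edgeR unadjusted p = 0.189, adjusted p = 0.787).

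Ibsp (bone sialoprotein), a nucleator of hydroxyapatite, was at 414, 401 and 249 CPM in controls and at 479, 609 and 355 CPM in mutants. Mutant replicate 3 lay below the 2 highest controls, so the groups overlapped. The log2 fold change was 0.44 (SE 0.27, edgeR unadjusted p = 0.129, adjusted p = 0.756), and it was between 0.25 and 0.63 in the alternatives, called in none.

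Dmp1, an osteocyte matrix protein that controls mineralization and phosphate handling, varied widely. It was at 25.5, 4.55 and 5.71 CPM in controls and at 12.7, 19.3 and 5.21 CPM in mutants. Control replicate 1 was the highest of all 6 libraries and mutant replicate 3 was at the level of the other controls. The log2 fold change was 0.07 (SE 0.63, edgeR unadjusted p = 0.909, adjusted p = 0.986). Its direction rested on single libraries: without control replicate 1 it was 1.30 (edgeR unadjusted p = 0.0221), and without mutant replicate 2 it was -0.40 (edgeR unadjusted p = 0.589).

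Mepe, a matrix phosphoglycoprotein of osteoblasts and osteocytes, was at 5.57, 4.66 and 2.81 CPM in controls and 7.62, 4.33 and 4.57 CPM in mutants. The groups overlapped. The log2 fold change was 0.34 (SE 0.41, edgeR unadjusted p = 0.428, adjusted p = 0.864). It ran from 0.07 (without mutant replicate 1) to 0.58 (without control replicate 1) when single libraries were left out.

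Sost, the osteocyte inhibitor of Wnt signaling, is on the minus strand at chr11:101962458-101967015 and had the lowest level of the 10. It was at 2.35, 2.22 and 2.03 CPM in controls and at 1.02, 2.04 and 1.27 CPM in mutants, from 9 to 26 counts per library. Mutant replicate 2 reached the lowest control. The log2 fold change was -0.59 (SE 0.54, edgeR unadjusted p = 0.304, adjusted p = 0.826). It ran from -0.91 (without mutant replicate 2) to -0.36 (without mutant replicate 1) when single libraries were left out.

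Levels can be compared between genes only per length, and CPM were divided by the merged exon length in GENCODE M21 for this purpose. In controls the order in CPM per kilobase was Spp1 (399 ± 41.4), Ibsp (172 ± 44.5), Sp7 (31.0 ± 6.33), Runx2 (12.0 ± 2.55), Dlx5 (11.6 ± 2.76), Bglap (9.43 ± 1.01), Bglap2 (7.29 ± 1.58), Dmp1 (4.31 ± 4.25), Mepe (2.58 ± 0.834) and Sost (1.07 ± 0.0783; SD, n = 3 each). Neighbours from Runx2 through Mepe had overlapping libraries, whereas Spp1, Ibsp and Sp7 were separated from each other and from those after them. In mutants Bglap reached 29.3 ± 11.7 CPM per kilobase, next after Ibsp and beside Sp7 at 23.4 ± 8.77, and Bglap2 reached 18.0 ± 5.14. The place of Bglap and Bglap2 in these orders is uncertain, because reads of their shared stretches may be counted for either gene or for neither.

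Counts were also set against those of 2 collagens in the same library. These were Col1a1, the type I collagen chain of bone and annulus, and Col10a1, the collagen of hypertrophic chondrocytes. Col1a1 itself had a higher mean in mutants, with overlapping groups (8222 ± 4498 against 17073 ± 4810 CPM, log2 fold change 1.05, SE 0.46, edgeR unadjusted p = 0.0429, adjusted p = 0.691). Its call was kept in 2 of the 6 runs that left out a library, with values from 0.73 to 1.55, the highest without control replicate 1. Col10a1 was at 398 ± 216 CPM in controls and 211 ± 108 CPM in mutants (-0.91, SE 0.43, edgeR unadjusted p = 0.0573, adjusted p = 0.691). Leaving out single libraries gave -1.35 to -0.37, the latter without control replicate 1 (edgeR unadjusted p = 0.328), and Col10a1 was called in 6 of 12 alternatives, among them the replicate block (-0.91, edgeR unadjusted p = 0.00149) and limma (-0.99, unadjusted p = 0.0288). Every ratio to Col10a1 rests on this denominator. Col10a1 lies within the gene Nt5dc1 on the opposite strand, and Nt5dc1 had nearly the same counts (19928 against 18141 in all), so these counts may be of the same reads. In GENCODE M21 they share only 18 exonic bases, and whether the same reads were counted for both was not tested.

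Relative to Col10a1 all 10 genes had a higher mean in mutants. The log2 fold change of Col10a1 itself (-0.91) was below that of each of the 10, the lowest being Dlx5 (-0.67). Bglap per Col10a1 was at -6.62, -5.95 and -5.33 (log2 ratio of counts) in controls and at -4.19, -2.90 and -3.40 in mutants, a difference of 2.47 with no overlap. The differences were 2.19 for Bglap2, 1.35 for Ibsp and 1.26 for Mepe, and these 4 reached the smallest two-sided exact permutation p that 3 libraries against 3 allow, 0.1. Differences for the 3 transcription factors were smaller: 0.46 for Sp7, 0.36 for Runx2 and 0.26 for Dlx5 (exact permutation p = 0.6, 0.5 and 0.8). Without control replicate 1, the difference per Col10a1 was 2.14 for Bglap and 1.95 for Bglap2. In that setting it fell to 0.15 for Sp7 and 0.12 for Runx2, and turned to -0.30 for Dlx5. For Sost it turned from 0.24 to -0.12.

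Relative to Col1a1, 8 of 10 genes had a lower mean in mutants. The log2 fold change of Col1a1 itself (1.05) was above those of all but Bglap (1.64) and Bglap2 (1.31). The counts of genes higher or lower thus followed from the change of each denominator, and the share over all genes was not computed. Runx2 per Col1a1 was at -6.61, -6.41 and -5.38 in controls and -7.33, -7.80 and -8.43 in mutants, a difference of -1.72 with no overlap (two-sided exact permutation p = 0.1). Sost per Col1a1 differed by -1.84, also with no overlap (exact permutation p = 0.1). The other factors differed by -1.82 for Dlx5 and -1.62 for Sp7 (exact permutation p = 0.2 for each). Without control replicate 1 these differences were -2.38 for Dlx5 and -1.92 for Sp7. Bglap per Col1a1 differed by 0.39 and Bglap2 per Col1a1 by 0.11 (exact permutation p = 0.7 and 0.9), with overlapping groups in both. The Bglap difference per Col1a1 lay between 0.07 (without control replicate 1) and 0.85 (without mutant replicate 3) when single libraries were left out, and that of Bglap2 turned to -0.12 without control replicate 1. Ibsp and Spp1 differed by -0.73 and -0.89 per Col1a1 (exact permutation p = 0.2 for each). After Benjamini-Hochberg adjustment over all 20 ratios the lowest p was 0.333, and these ratios share their denominators within each library.

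**Figure D3:**
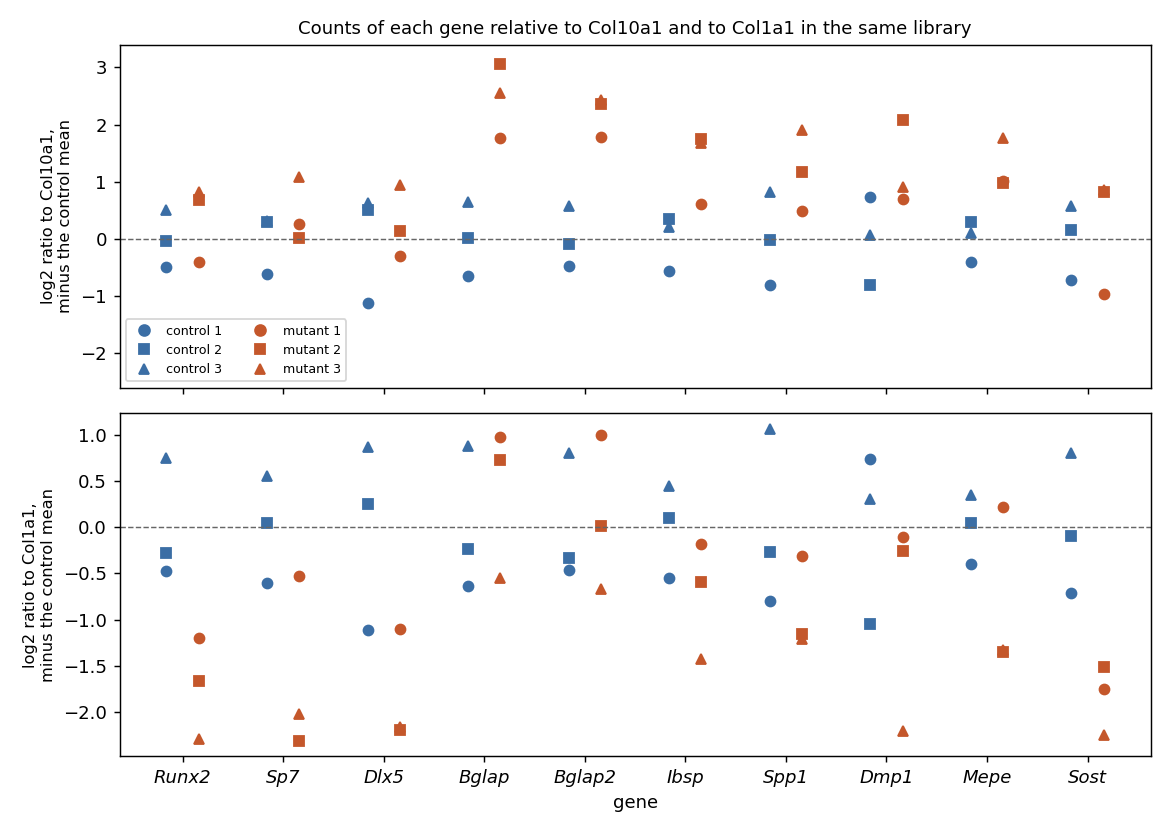
Log2 ratio of the counts of each gene to Col10a1 (top) and to Col1a1 (bottom) in the same library, drawn relative to the mean of the controls, with control libraries in blue and mutant libraries in orange. Bglap and Bglap2 lie above the controls in the top panel and overlap them in the bottom panel, where Runx2 and Sost lie below.

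Other genes of the osteoblast lineage were read from 4 lists, against backgrounds of 2.89% of all genes called higher and 4.32% called lower. Of 14 further transcription factors and regulators, 12 were tested, 1 was called higher and 0 lower, with a median log2 fold change of 0.02 against -0.01 over all genes. The 1 was Dlx3, a homeodomain factor of hair, teeth and bone, at 0.923 ± 0.350 and 2.75 ± 0.893 CPM (log2 fold change 1.55, SE 0.59, edgeR unadjusted p = 0.0240, adjusted p = 0.676). Its counts were 9, 5 and 16 in controls and 18, 46 and 23 in mutants, and its call was lost on leaving out control replicate 2 or either of mutant replicates 2 and 3 (log2 fold changes of 1.30, 1.28 and 1.64, edgeR unadjusted p = 0.0947, 0.133 and 0.0579). The listed genes with the most counts, Atf4 (0.11, SE 0.16) and Zfp521 (0.25, SE 0.20), were not called.

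Of 20 further matrix and mineralization genes, 17 were tested, 2 were called higher and 0 lower, with a median of 0.01. Periostin (Postn), a matricellular protein of periosteum and annulus, was at 93.3, 45.5 and 51.5 CPM in controls and at 143, 150 and 135 CPM in mutants. The mutants were all above the controls (log2 fold change 1.17, SE 0.26, edgeR unadjusted p = 0.00114, adjusted p = 0.553), and the adjusted p passed 0.05 in 3 of 12 alternatives: edgeR with no filter on low counts (0.000967), DESeq2 (0.0053) and edgeR without control replicate 1 (log2 fold change 1.57, adjusted p = 0.0187). Serpinf1 (PEDF), whose loss impairs bone mineralization, was at 92.3 ± 18.6 and 149 ± 23.0 CPM (0.69, SE 0.21, edgeR unadjusted p = 0.00748, adjusted p = 0.676). Phospho1 and Smpd3 were listed at exactly 0 in every library. Whether their reads were counted under these symbols was not tested, so the 0 is not read as absent expression.

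Of 14 osteocyte genes, 11 were tested, with 1 called higher, 1 lower and a median of 0.31. The surface receptor Cd44, which is not particular to osteocytes, was higher (0.56, SE 0.19, edgeR unadjusted p = 0.0142). Phex, the phosphate-regulating endopeptidase, was lower (-0.81, SE 0.33, edgeR unadjusted p = 0.0341), and each had an adjusted p of 0.676. The Phex call was kept in 6 of 12 alternatives and was lost with a replicate block (-0.77, edgeR unadjusted p = 0.0524), in limma (-0.68, unadjusted p = 0.0641) and without control replicate 3 or any 1 mutant library (-0.89 to -0.50). The Cd44 call was lost with scaling by total counts alone, without control replicate 2 and without mutant replicate 2 (0.44 to 0.50). Of 15 Wnt and BMP genes that act on osteoblasts, 14 were tested, 0 were called higher and 2 lower, with a median of -0.04. These were Bmp7 (21.1 ± 3.12 against 12.8 ± 4.27 CPM, -0.73, SE 0.27, edgeR unadjusted p = 0.0201) and the receptor of parathyroid hormone Pth1r (837 ± 238 against 512 ± 37.4 CPM, -0.71, SE 0.24, edgeR unadjusted p = 0.0147), again each with an adjusted p of 0.676. Pth1r is also a hypertrophic chondrocyte marker and is 1 of the 3 of that list counted above as called lower. The Pth1r call was lost without control replicate 1 (-0.45, edgeR unadjusted p = 0.0704) and without mutant replicate 2 (-0.64, edgeR unadjusted p = 0.0516). The Bmp7 call was lost on leaving out control replicate 2 or either of mutant replicates 1 and 2 (-0.62, -0.69 and -0.49). Without control replicate 1, the calls higher in these 4 lists were 2, 4, 3 and 3, beside 5.25% of all genes called higher in that setting. The calls lower were then 0, 1, 1 and 1, beside 8.89% of all genes called lower.

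Among the other cell types, summed osteoclast markers were at 241, 197 and 175 CPM in controls and 226, 317 and 181 CPM in mutants, overlapping, and 1 of the 6 tested was called higher. That gene was Nfatc1, a transcription factor of osteoclasts and other cells, at 63.7 ± 7.65 and 89.9 ± 4.34 CPM (log2 fold change 0.50, SE 0.16, edgeR unadjusted p = 0.0123, adjusted p = 0.676). Acp5, the tartrate-resistant phosphatase of osteoclasts, was at 84.2 CPM in mutant replicate 2, the library with the highest Bglap, but at 10.4 and 7.54 CPM in the other mutants, below every control (23.5 to 35.3 CPM). Ocstamp, Dcstamp, Calcr and Oscar had too few counts to be tested. The median log2 fold change of the 6 tested was 0.24, with 4 above 0. Markers of outer annulus and tendon, where Postn and Col1a1 are also made, were at a summed 4032, 4219 and 2889 CPM in controls and at 3775, 5331 and 5036 CPM in mutants, with 2 of 6 called higher. The part of these cell types in the bone gene values was not tested.

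**Figure D4:**
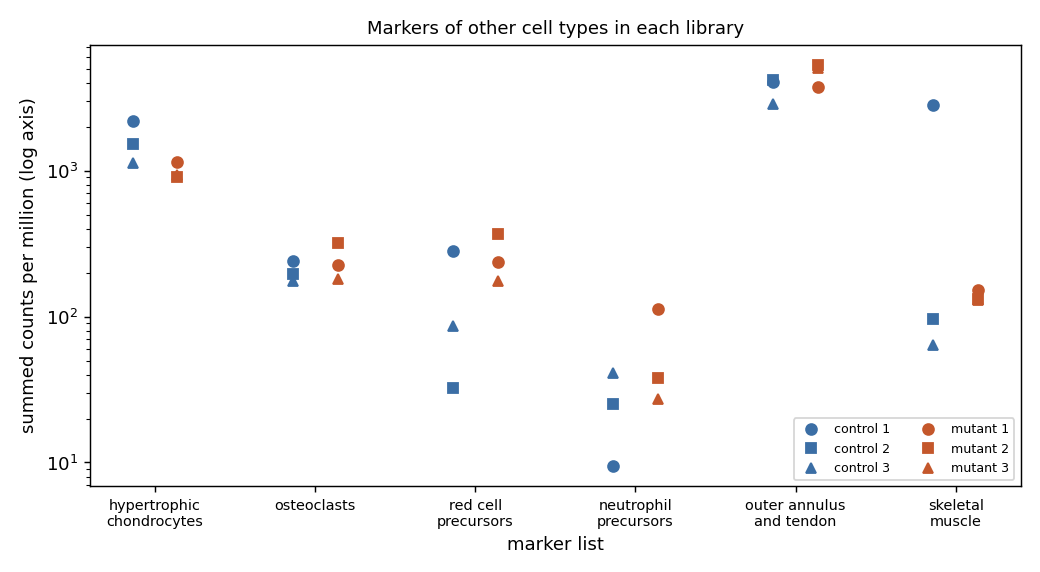
Summed CPM (log axis) of marker lists for 6 other cell types in each library, with control libraries in blue and mutant libraries in orange. Skeletal muscle markers stand at 2801 CPM in control replicate 1 alone, and red cell precursor markers are lowest in control replicate 2.

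The 10 genes did not vary as one. The Pearson r of each with their mean log2 CPM over the 6 libraries, which includes the gene itself, ran from -0.45 for Dlx5 to 0.89 for Dmp1, with 0.66 for Bglap and 0.86 for Ibsp. Of 9958 other genes with a mean of at least 10 CPM, the 5 with the highest r to that mean were Ppp2r5c, Gm9747, Ppp3cb, Xpo5 and Tmem2, at 0.97 to 0.98, and none of them is in the bone lists. These correlations describe 6 libraries that share depth and composition, and they were not tested.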

How the data were processed

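The deposited files hold raw counts per gene symbol, made by the authors with 1 file per library. The processing notes name STAR 2.5.3a, HTSeq and DESeq2 with mm10 and GRCm38, whereas the methods text names Cutadapt and HISAT2. The strand setting and read length are not given in the sources used here. The 5 closing rows that name no gene were left out (39.4% to 43.3% of counts in a library had no feature and 0.846% to 1.05% were ambiguous). The authors' own table of the comparison (normalized values, fold changes and p-values) was not used.

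After filterByExpr (count minimum 10) and TMM scaling, mutant pools were tested against control pools (edgeR 4.0.16, R 4.3.3, quasi-likelihood test, Benjamini-Hochberg over 16152 genes). The code was tested on simulated data. The SE is the size of the log2 fold change divided by the square root of F. Ratios within libraries were compared with two-sided exact permutation tests. Coordinates are those of GENCODE M21. Alternatives were other scalings, no filter, a replicate block, DESeq2 1.42.0, limma 3.58.1 (voom with quality weights), each library left out, and the osteocalcin genes summed. Libraries are separate pools of mice. All 10 genes are named with each library's value. Of the 4 further bone lists, every called gene is named and, where fewer than 2 were called, also the 2 with the most counts. Marker lists of other cell types are given as sums and counts of calls, with single genes chosen after their values were seen. For the disc and growth plate chondrocyte and nucleus pulposus lists only the counts of calls are given. The genes and lists were chosen with earlier results of these data known.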

Additional observations from a re-analysis of the deposited data

How the results depend on the processing

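Bglap and Bglap2 kept their direction and their call in every alternative run. Leaving out single libraries, the genes called lower among the 10 numbered 1 to 2 (1 without control replicate 1, control replicate 2 or mutant replicate 3). Genes of the 10 at an adjusted p under 0.05 numbered 1 in edgeR with no filter on low counts and 1 in DESeq2, Bglap in both, while these settings passed 245 and 58 of all genes against 1. Over the alternatives, between 618 (without control replicate 3) and 2427 (without control replicate 1) of all genes were called against 1164. The calls higher ranged from 0 to 2 among the further transcription factors, 2 to 4 among matrix genes, 0 to 3 among osteocyte genes and 0 to 4 among Wnt and BMP genes, and the calls lower were 0, 0 to 1, 0 to 1 and 0 to 2 in the same order. Scaling by total counts alone moved the median log2 fold change of all genes to -0.13, with 233 genes called higher and 990 lower against 467 and 697, and the values of the 10 genes moved with it.

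When single libraries were left out, the direction turned for 4 values and for the median of the 10 genes (-0.07 to 0.44). The log2 fold change of Dmp1 ranged from -0.40 to 1.30. The log2 difference of Bglap2 per Col1a1 ranged from -0.33 to 0.52, that of Dlx5 per Col10a1 from -0.30 to 0.57 and that of Sost per Col10a1 from -0.12 to 0.84. The cause of these changes was not tested. Residuals of same-numbered libraries correlated at 0.16, -0.13 and 0.10. Control and mutant replicate 1 each had their highest correlation across groups with the other. Mutant replicate 3 had its highest with control replicate 3, but not the reverse, and neither library of replicate 2 did so with its own number. Whether the library numbers mark pairs was not tested. With a replicate block, 2 of the 10 genes were called higher and 2 lower, as without it, and 1002 of all genes against 1164. Counts were low for Sost (9 to 26 per library) and too low to test for Bglap3.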
